A study of Mus musculus with 48 samples.

Results

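The potassium channel genes of the neurovascular unit (NVU) were described in brain cells sorted after experimental stroke. The deposited expression table held 86 protein-coding genes whose symbol starts with *Kcn*, without *Kcnj8* and *Kcnj10*, and 53 of them, out of 24973 genes in the table, averaged 10 or more normalized counts across the 48 libraries and were kept. Male C57BL/6 mice of 12 to 15 weeks underwent transient middle cerebral artery occlusion (tMCAO) for 1 h, with 23 h of reperfusion, and animals with a low neurological deficit score were excluded. The ischemic (ipsilateral) and the opposite (contralateral) hemisphere of the same animals were compared, so that the control is tissue from operated mice and not from healthy ones. Each library came from cells pooled from 3 to 4 mice. Endothelial cells (EC, sorted by VE-cadherin), pericytes (PC, double positive for NG2 and PDGFRβ, a gate that can take in smooth muscle cells), astrocytes (AC, sorted by ACSA2, the product of *Atp1b2*) and microglia (MG, CD45 low and CD11b positive) gave 6 libraries per hemisphere each, 8 groups in all. For 12 ipsilateral libraries of PC and MG titles and table columns give opposite cell types. The columns were followed, and with them each of 16 marker genes of the 4 cell types was higher in every library of its own cell type than in any other library.

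Potassium channels let potassium ions leave or enter a cell along their gradient and so set its membrane potential. Inward rectifiers (*Kcnj*) and two-pore channels (*Kcnk*) are open near rest, voltage-gated channels (*Kcna* to *Kcns*) open on depolarization, and channels of the *Kcnm*, *Kcnn* and *Kcnt* families open when calcium or sodium rises in the cell. Auxiliary proteins (*Kcnab*, *Kcne*, *Kcnip*, *Kcnmb*) bind to pore subunits and change their opening or their traffic. In the brain, astrocytes take up and spread potassium released by neurons, the channels of mural cells and endothelium set vessel tone, and the channels of microglia bear on their surveillance and on inflammasome activation.

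Of 39 voltage-gated genes 21 passed the mean of 10, of 12 inward rectifiers 6, of 11 two-pore genes 8, of 8 calcium- or sodium-activated genes 6 and of 16 auxiliary genes 12. The genes just above the limit were *Kcnc1* (mean 10.9 normalized counts), *Kcnh3* (11.5) and *Kcnip4* (12.6), and those just below were *Kcnb2* (7.29), *Kcnj5* (6.75) and *Kcnu1* (6.46). Among genes below it were *Kcnj11*, the pore of the KATP channel in neurons and pancreas (mean 4.73), and *Kcnq5* (4.94), a Kv7 subunit of vessels and neurons, both listed at 0 in all libraries of MG. Of the 53 genes, 9 had a mean of at least 10 in all 8 groups and 0 had it in 1 group alone. Both hemispheres of a cell type count as groups, and *Kcnc1*, *Kcnd3*, *Kcnh3*, *Kcnk10* and *Kcnk2* reached it in AC alone and *Kcng1* in PC alone. The filter kept these genes through the cell type in which they are called enriched below. It uses the mean over all 48 libraries, so further enriched genes also passed only through their own cell type. In AC these were *Kcnc4* (at most 11 in any group of another cell type), *Kcnd2* (at most 14.5), *Kcne1l*, *Kcnh7*, *Kcnip2*, *Kcnj14*, *Kcnn1*, *Kcnn3* and *Kcnq3*, and in MG *Kcnk12*. The calls for all these genes are not independent of the filter. AC libraries held the most channel genes, with a median of 43 genes above 10 normalized counts in contralateral AC, against 26.5 in PC, 23 in MG and 17.5 in EC. By the mean over both hemispheres, 48 of the 53 genes reached 10 in AC, 36 in PC, 28 in MG and 26 in EC. Of all genes, 15264 did so in AC, 13597 in PC, 13300 in MG and 13242 in EC, so AC was also highest there. The number of genes above a limit depends on the depth of a library, which was not derived. Library sums of normalized counts, which do not give that depth, ran from 10549900 to 16942165.

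**Figure D1:**
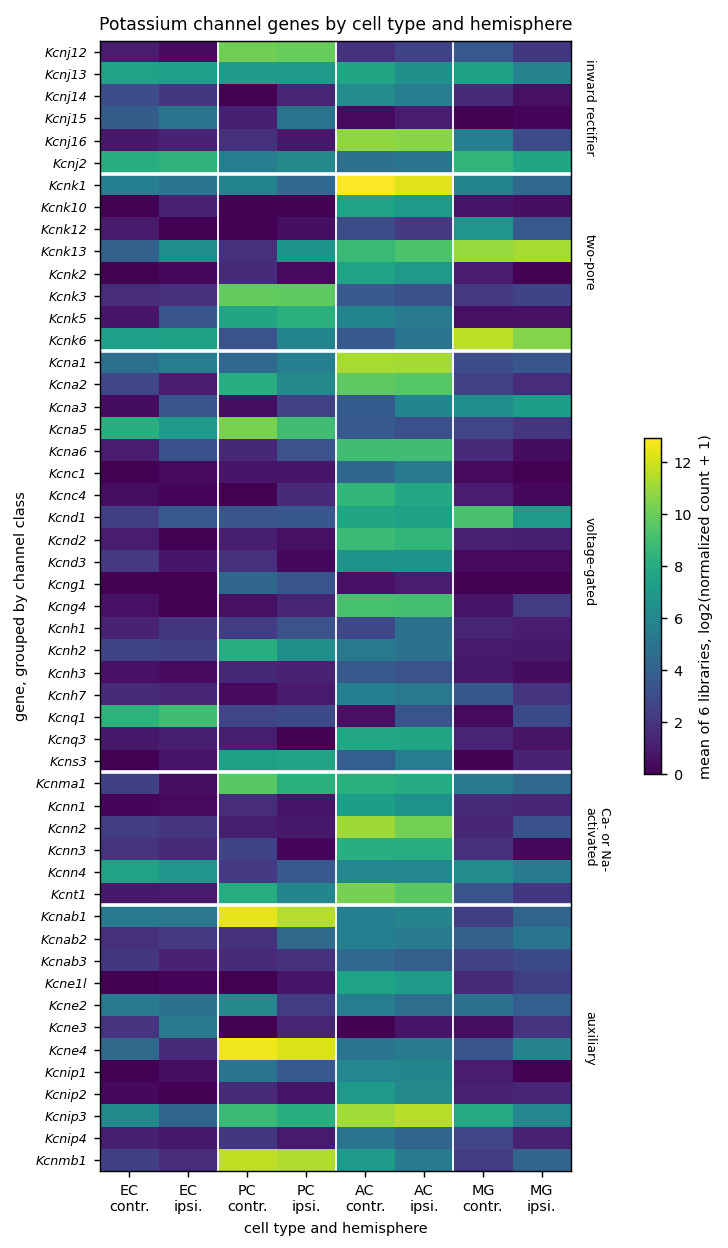
Mean level of 51 of the 53 potassium channel genes in the 8 groups of cell type and hemisphere, as the mean of log2(normalized count + 1) over 6 libraries, with genes grouped by channel class. *Kcnk1* in AC and *Kcne4* in PC are the brightest cells, and 29 of the 52 genes tested between cell types were highest in contralateral AC, 14 in PC, 6 in MG and 3 in EC.

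The upstream sequence of 1 gene per cell type is shown to give the loci behind these patterns, each a member of high level or enrichment in that cell type with a single entry in the RefSeq promoter table. Each is the 250 bases before the annotated start on GRCm38.p6, 5′ to 3′ on the gene's strand, which is the plus strand for all 4, with CG dinucleotides in capitals. None of the 4 windows overlapped an exon of GENCODE M21. They are chr16:95257308-95257557 for *Kcnj15* (EC), chr11:33962763-33963012 for *Kcnmb1* (PC), chr8:125994852-125995101 for *Kcnk1* (AC) and chr12:99964249-99964498 for *Kcnk13* (MG).
*Kcnj15*: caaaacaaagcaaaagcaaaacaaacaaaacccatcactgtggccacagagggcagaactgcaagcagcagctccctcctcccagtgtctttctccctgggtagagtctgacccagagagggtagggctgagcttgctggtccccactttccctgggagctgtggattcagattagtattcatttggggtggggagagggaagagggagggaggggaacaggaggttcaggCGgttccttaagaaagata
*Kcnmb1*: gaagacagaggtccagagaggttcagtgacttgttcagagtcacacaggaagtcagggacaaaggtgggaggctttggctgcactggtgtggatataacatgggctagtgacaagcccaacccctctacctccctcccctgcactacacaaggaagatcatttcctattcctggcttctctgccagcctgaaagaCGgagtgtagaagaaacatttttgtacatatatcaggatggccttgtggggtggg
*Kcnk1*: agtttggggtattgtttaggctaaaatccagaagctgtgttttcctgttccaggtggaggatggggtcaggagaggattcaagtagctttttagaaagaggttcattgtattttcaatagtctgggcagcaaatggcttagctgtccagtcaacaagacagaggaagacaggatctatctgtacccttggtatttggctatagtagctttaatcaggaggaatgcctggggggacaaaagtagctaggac
*Kcnk13*: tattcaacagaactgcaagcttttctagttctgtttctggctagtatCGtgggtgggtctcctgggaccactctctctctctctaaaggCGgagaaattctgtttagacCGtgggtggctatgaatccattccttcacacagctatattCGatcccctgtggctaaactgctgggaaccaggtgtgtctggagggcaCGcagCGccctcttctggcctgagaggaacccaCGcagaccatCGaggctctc
The *Kcnk13* window holds 8 CG dinucleotides, the *Kcnj15* and *Kcnmb1* windows 1 each and the *Kcnk1* window 0. The table matched 39 of the 53 genes by symbol, with 59 windows, in which the median was 8 CG dinucleotides and a GC content of 58.8%, against 6 and 52.4% over all 32851 windows. On either strand, the PU.1 site GAGGAAGT was in 0 of the 59 windows and in 2.44% of all windows, the NFI element TTGGCA in 7 and 12.3%, the CArG box in 0 and 1.47%, TATAAA in 2 and 12.4%, and the E-box CANNTG in 42 and 66.2%. The 2 windows with TATAAA are those of *Kcnj13* and of 1 start of *Kcnj16*. These counts describe letters in the windows.

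Levels in contralateral hemispheres were compared between cell types with limma over 24 libraries. A gene was called enriched in a cell type where it was higher than in each of the other 3, with an adjusted p of at most 0.05 and at least a doubling, a log2 difference of 1, in all 3 comparisons. Of 52 genes tested, 22 were enriched in AC (13.7% of all 15103 genes tested), 11 in PC (5.36%), 3 in MG (8.49%) and 2 in EC (4.73%). Of the 86 channel genes before the filter on the mean, these counts are 25.6% in AC, 12.8% in PC, 3.49% in MG and 2.33% in EC. The other 14 were enriched in no cell type, and *Kcne3* was too low to be tested. Differences below are the smallest of the 3 comparisons on the log2 scale, with the largest of the 3 adjusted p-values.

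Astrocyte libraries were dominated by *Kcnk1*, which encodes the two-pore channel TWIK-1. It gave 48.4% of the summed level of the 53 genes per kilobase of exon in contralateral AC (3613 of 7463 normalized counts per kb). Its normalized counts in contralateral AC ranged from 5917 to 11051 with a median of 7967.5, while in the other contralateral libraries the highest value was 629, in PC. The groups did not overlap (smallest difference 7.12, limma, adjusted p = 1.07e-05). Next per kilobase came *Kcnip3* (677), which encodes a calcium-binding partner of Kv4 channels, *Kcna1* (606), the Kv1.1 pore, *Kcnj16* (484), the Kir5.1 partner of the astrocyte channel Kir4.1, and *Kcnn2* (305), the SK2 calcium-activated channel. Among enriched genes the difference was widest for *Kcnn2* (8.75), for the silent Kv subunit *Kcng4* (8.44) and for the Kv3.4 pore *Kcnc4* (7.60). *Kcnc4* ranged from 256 to 511 normalized counts in contralateral AC with a median of 376.5, and its highest value in the other 3 cell types was 7. *Kcnd2* (7.53), which encodes Kv4.2, and *Kcna6* (7.44), which encodes Kv1.6, followed.

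The two-pore channel TREK-1, *Kcnk2*, was also enriched in AC (5.97, adjusted p = 6.26e-06), with 128 to 230 normalized counts and a median of 217.5. So were *Kcnk10*, *Kcnj14*, *Kcnj16*, *Kcna1*, *Kcnc1*, *Kcnd3*, *Kcnh3*, *Kcnh7*, *Kcnq3*, *Kcnn1*, *Kcnn3*, *Kcnt1*, *Kcne1l*, *Kcnip2* and *Kcnip3*. Of these calls that of *Kcnh3* was lost in 10 alternative fits, among them the fit without the replicate block, and kept in 2, that of *Kcnt1* was lost in 4 and that of *Kcnh7* in 3. The SK3 gene *Kcnn3* ranged from 203 to 477 with a median of 260. The AC libraries also held RNA of oligodendrocyte lineage markers, whose sum over 6 genes ranged from 31355 to 285922 in contralateral AC. That sum was at most 28381 in the other contralateral libraries. Its median in contralateral AC was 167297, against 85602 for the sum of the 4 astrocyte markers in the same libraries. Only in replicate 6 was it below the astrocyte sum (31355 against 84514). All 10 neuronal markers had a mean above 10 in contralateral AC, with none at 0 in all 6 libraries and sums of 1071 to 5346. The part of those cells in the AC values was not tested. *Kcna1* varied most among the 5 leading genes, from 709 to 5977 normalized counts.

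Pericyte libraries held the highest level of an auxiliary gene, *Kcne4*, whose product inhibits Kv channels. It reached 2472 normalized counts per kb, 35.9% of the channel sum in contralateral PC. Its normalized counts ranged from 5247 to 8150 with a median of 6741 in contralateral PC, and at most 344 was found in any other contralateral library (7.65, adjusted p = 5.71e-05). Next per kilobase were *Kcnmb1* (809), the β1 subunit of the BK channel of vascular smooth muscle, *Kcnj13* (713), *Kcnab1* (674), a β subunit of Kv1 channels, and *Kcna5* (550), the Kv1.5 pore. The place of *Kcnj13* rests on replicate 2, without which it was at 153 normalized counts per kb, below *Kcnab1* (690), *Kcna5* (638), *Kcnj12* (579) and *Kcnk3* (271). *Kcnab1* had 3765 to 7275 normalized counts with a median of 5941 (6.89, adjusted p = 2.91e-07), and *Kcnmb1* had 2766 to 4103 with a median of 3359.5 (4.67, adjusted p = 0.000574).

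Among pore genes enriched in PC, *Kcnj12*, the Kir2.2 channel, ranged from 502 to 2727 normalized counts with a median of 1338 (6.50, adjusted p = 4.03e-05). The acid-sensitive two-pore channel TASK-1, *Kcnk3*, ranged from 489 to 1277 with a median of 1078.5 (6.15, adjusted p = 4.55e-05). *Kcng1*, a silent Kv subunit, was low, between 0 and 325 with a median of 32. *Kcnh2*, *Kcnk5* and *Kcns3* were on the list too. The call was lost in 6 alternative fits for *Kcnh2* and in 5 each for *Kcnk5* and *Kcna5*. The BK pore gene *Kcnma1* (357 to 1308, median 826) was highest in PC without meeting the rule, since its difference from AC was 1.42 (standard error 0.77, adjusted p = 0.138). All 4 smooth muscle markers were present in PC, with sums of 305671 to 472420 in contralateral libraries, so RNA of pericytes and of smooth muscle cells cannot be told apart there.

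Microglia libraries were led by a pair of two-pore channels. *Kcnk6*, which encodes TWIK-2, and *Kcnk13*, which encodes THIK-1, gave 769 and 626 normalized counts per kb, together 65.9% of the channel sum in contralateral MG. *Kcnk6* had 2773 to 3688 normalized counts with a median of 3068.5, and the highest value in another contralateral library was 232, in EC (4.32, adjusted p = 0.00211). *Kcnk13* had 1761 to 2223 with a median of 1937. It was not enriched, because AC also held it, at 68 to 1017 normalized counts with a median of 531.5 (AC minus MG -2.20, standard error 1.07, adjusted p = 0.0944). The other enriched genes were *Kcnk12* (29 to 255, median 123, difference 3.80), a silent relative of *Kcnk13*, and *Kcna3* (25 to 156, median 90, difference 2.54), the Kv1.3 pore. *Kcnd1*, the Kv4.1 pore, had 528 to 725 normalized counts in MG with a median of 587, against 95 to 437 in AC (adjusted p = 0.163). *Kcnj2*, the Kir2.1 channel, ranged from 256 to 576 in MG (median 365) and from 197 to 341 in EC (median 282), and these neighbours did not differ beyond their spread (EC minus MG -0.50, standard error 0.55, adjusted p = 0.507).

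Endothelial cells held the smallest channel sum, 1227 normalized counts per kb, against 2115 in MG, 6890 in PC and 7463 in AC. Of the EC sum, 50.9% came from *Kcnj13*, a gene described below with its high value in replicate 2. *Kcnq1*, the Kv7.1 pore, ranged from 142 to 512 normalized counts in contralateral EC with a median of 378, above the 51 of the highest other contralateral library (5.69, adjusted p = 8.10e-05). *Kcnj15*, the Kir4.2 channel, was low, between 0 and 110 with a median of 33, and overlapped PC at 0 to 19 (2.64, adjusted p = 0.0297). *Kcna5* (90 to 616, median 330.5) was lower in EC than in PC by 2.16 (adjusted p = 0.0188). *Kcnn4*, the intermediate-conductance channel of endothelium, ranged from 70 to 891 with a median of 118.5, and its differences from MG (1.26, standard error 0.97, adjusted p = 0.321) and AC (1.46, standard error 0.97, adjusted p = 0.219) were within its spread.

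The highest channel gene per kilobase in contralateral EC was *Kcnj13* (624), the Kir7.1 channel of choroid plexus and other epithelia, and *Kcne2* (61.2), a β subunit of the same epithelium, was also among the 5 highest. Without replicate 2 *Kcnj13* was at 219 normalized counts per kb, still first, and *Kcne2* was no longer among the 5 highest. Both were detected in all 4 cell types and enriched in none. *Kcnj13* had a median of 314.5 normalized counts in contralateral EC, but replicate 2 held 3365, and in contralateral PC the median was 199 with 4457 in replicate 2. These libraries also stood highest for *Ttr*, which encodes the thyroid hormone carrier transthyretin of choroid plexus. Across the 48 libraries *Ttr* ranged from 14 to 110252 with a median of 4666. The library with the highest *Ttr* of its group was also that with the highest *Kcnj13* in 7 of 8 groups and with the highest *Kcne2* in 6 of 8. Summed over 9 choroid plexus genes, a list drawn up after these values were seen, the level ranged from 213 to 201627 in contralateral PC, with 0 of the 9 listed at 0 in all 6 libraries. The part of choroid plexus RNA in these values was not tested.

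**Figure D2:**
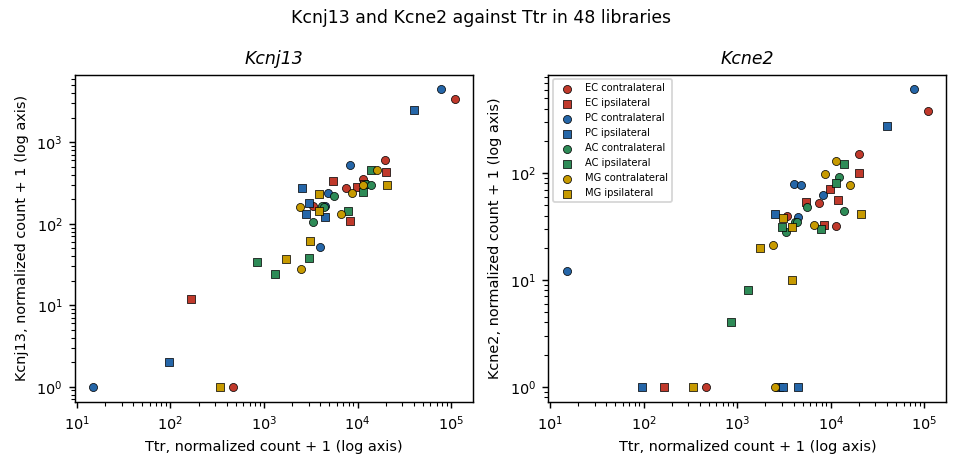
*Kcnj13* (left) and *Kcne2* (right) against *Ttr* in each of the 48 libraries, as normalized count + 1 on log axes, with colour for the cell type and marker shape for the hemisphere. Points of all 4 cell types lie along 1 band, and the EC and PC libraries with the most *Ttr* have the most *Kcnj13*.

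In ipsilateral hemispheres the same rule gave 23 genes enriched in AC (13.4% of all genes), 9 in PC (4.27%), 1 in MG (6.1%) and 1 in EC (3.93%). Of the 22 contralateral AC genes 21 were called again, which is 95.5% of that list and 91.3% of the ipsilateral one. In PC 8 genes were shared, 72.7% of the contralateral and 88.9% of the ipsilateral list, in MG *Kcnk6* and in EC *Kcnq1*. The share called again among all enriched genes was not derived, so these overlaps are not shown to be particular to channel genes.

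The change after stroke was tested within each cell type as a paired difference, ipsilateral minus contralateral, over 6 pairs of libraries on the scale of log2(normalized count + 1). A gene was called regulated at an adjusted p of at most 0.05 and a fold change of at least 1.5, provided that all 6 libraries of 1 hemisphere or of both exceeded 10 normalized counts. In bulk RNA, fewer cells of a type and less RNA per cell cannot be told apart.

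In microglia 3 of 28 tested genes were regulated, or 10.7%, close to the 11% of all 13300 genes tested, and all 3 fell, against 6.5% of all genes that fell. In the table they lie on GRCm38 at chr7:29221926-29232515 (*Kcnk6*, minus strand), chrX:7822289-7838280 (*Kcnd1*, plus strand) and chr2:127456498-127521370 (*Kcnip3*, minus strand). *Kcnk6* ranged from 2773 to 3688 normalized counts in contralateral and from 1071 to 2265 in ipsilateral MG, with medians of 3068.5 and 1392. The groups did not overlap, and *Kcnk6* was lower in all 6 pairs, by a factor of 2.10 (log2 change -1.07, standard error 0.18, limma, adjusted p = 0.00692). *Kcnd1* ranged from 528 to 725 (median 587) in contralateral and from 38 to 389 (median 164) in ipsilateral MG. It too was lower in all 6 pairs without overlap, by a factor of 4.49 (log2 change -2.17, standard error 0.45, adjusted p = 0.0163). *Kcnip3*, whose product binds Kv4 channels such as that of *Kcnd1*, ranged from 144 to 304 (median 270) and from 30 to 154 (median 71.5). It was lower in 6 of 6 pairs, by a factor of 3.74, and the ranges met only between 144 and 154 (log2 change -1.90, standard error 0.44, adjusted p = 0.0236).

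Values that moved with these falls were those of other markers. The astrocyte marker sum in MG was 3.68% of its AC level in contralateral and 1.48% in ipsilateral libraries, with 4 of 4 markers above a mean of 10 in both. Of these 4, *Slc1a3* fell in MG (log2 change -1.62, adjusted p = 0.00203), while *Gfap* (-0.49), *Aqp4* (-0.01) and *Aldh1l1* (0.44) had log2 changes with adjusted p-values from 0.635 to 0.99. *Kcnip3* in MG was 10.4% and 2.45% of its AC level, and *Kcnd1* 269% and 104%. The AC genes *Kcnk1* (0.978% and 0.928%), *Kcnn2* (0.322% and 1.09%) and *Kcna1* (0.978% and 0.657%) were near or below 1% of their AC levels in MG of both hemispheres. Of the microglial markers, *Tmem119* (limma, log2 change -1.60, adjusted p = 0.00663) and *Csf1r* (log2 change -1.10, adjusted p = 0.0401) fell. *Aif1* (log2 change -0.47, adjusted p = 0.209) and *Cd68* (log2 change 0.41, adjusted p = 0.243) were not called, and the change of *Cd68* was positive. The sum of 4 was 180699 to 227678 in contralateral and 91419 to 163197 in ipsilateral MG, while 3 of 4 neutrophil markers rose. The part of these shifts in the 3 changes was not tested. The call for *Kcnk6* held in 15 of 16 alternative fits and was lost in the joint fit of all 48 libraries (adjusted p = 0.394). That for *Kcnd1* was lost in the joint fit (adjusted p = 0.299) and without replicate 3 or replicate 4 (0.0613 and 0.0538), and that for *Kcnip3* with replicates 1 to 4 alone (adjusted p = 0.124) and without replicate 4 or replicate 6 (0.0818 and 0.0684).

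Other microglial channels did not pass the test in the main fit. Among alternative limma fits, *Kcnk12* passed in the joint fit of all 48 libraries (adjusted p = 0.0155). *Kcnj16* passed with a pseudocount of 10 (adjusted p = 0.037) and *Kcne4* without replicate 2 (adjusted p = 0.0378). *Kcnk13* was at 1345 to 3579 normalized counts (median 2533.5) in ipsilateral MG, higher than in the paired library in 5 of 6 pairs (log2 change 0.35, standard error 0.21, adjusted p = 0.291). Per kilobase it was at 832 in ipsilateral MG against 380 for *Kcnk6*, the reverse of their contralateral order. *Kcnj2* was lower in 6 of 6 pairs (medians 365 and 264, log2 change -0.92, standard error 0.35, adjusted p = 0.11) and *Kcna3* higher in 5 of 6 (medians 90 and 171, log2 change 0.89, standard error 0.43, adjusted p = 0.196). *Kcnk12* had medians of 123 and 26 (log2 change -3.14, standard error 1.07, adjusted p = 0.0825), and *Kcnj16* 32 and 10.5 (log2 change -2.57, standard error 0.83, adjusted p = 0.0718). *Kcnj16* in MG was 3.12% and 0.682% of its AC level, beside the astrocyte marker shares given above. *Kcnab1*, *Kcnmb1* and *Kcne4*, all PC genes, had positive log2 changes of 1.78, 1.92 and 2.37 in MG at unadjusted p under 0.05. Their contralateral and ipsilateral means in MG were 9.67 and 27, 17.8 and 23.7, and 24.5 and 69.8 normalized counts. Each was at 0 in at least 1 contralateral MG library, which widens a change on the log2 scale. Of other PC genes, *Kcnj12* in MG went from 1.30% to 0.971% of its PC level and *Kcnk3* from 0.767% to 1.45%. The PC marker sum in MG went from 0.451% to 1.12% of its PC level. None of its 4 markers was called in MG, and *Des* had a negative log2 change (-0.54). In ipsilateral MG that sum was 1865 in replicate 6 and 102 to 599 in the other replicates. In all, 9 of the 28 genes had an unadjusted p under 0.05, against 30% of all genes, and the median log2 change was -0.34, against -0.18 for all genes.

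**Figure D3:**
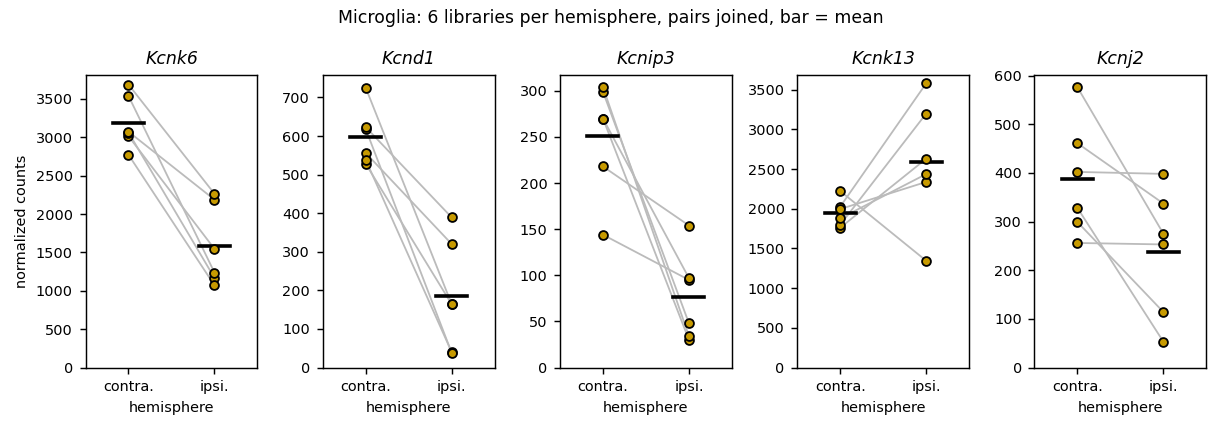
Normalized counts of *Kcnk6*, *Kcnd1*, *Kcnip3*, *Kcnk13* and *Kcnj2* in the 6 contralateral and 6 ipsilateral MG libraries, with lines joining libraries of the same replicate number and bars for the means; each panel has its own axis from 0. All 6 lines fall for *Kcnk6*, *Kcnd1* and *Kcnip3*, and 5 of 6 rise for *Kcnk13*.

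In pericytes 0 of 36 tested genes were regulated, against 1.66% of all genes, and 11 had an unadjusted p under 0.05 by limma, against 18.5%. *Kcna5* ranged from 318 to 3036 normalized counts (median 1423.5) in contralateral and from 215 to 1397 (median 456) in ipsilateral PC. It was lower in 5 of 6 pairs, with overlapping groups (log2 change -1.36, standard error 0.33, adjusted p = 0.0837). *Kcnab1* had medians of 5941 and 2599.5 and was lower in 6 of 6 pairs (log2 change -0.94, standard error 0.24, adjusted p = 0.0904). *Kcnma1* had medians of 826 and 292.5 and was lower in 5 of 6 (log2 change -1.41, standard error 0.37, adjusted p = 0.101). *Kcne4* stayed the highest channel gene of PC per kilobase, with medians of 6741 and 5097 normalized counts (log2 change -0.38, standard error 0.17, adjusted p = 0.26). *Kcnh2* and *Kcne2* also had a negative change at an unadjusted p under 0.05. For *Kcnj12* (-0.18, standard error 0.38), *Kcnk3* (-0.14, standard error 0.29) and *Kcnmb1* (-0.30, standard error 0.17) the log2 changes had adjusted p-values from 0.389 to 0.836.

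The sum of the 4 smooth muscle markers in PC was 305671 to 472420 (median 419293.5) in contralateral and 140102 to 323604 (median 187734) in ipsilateral libraries, and of the 4, *Myh11* fell (log2 change -1.48, adjusted p = 0.035). Its part in the lower values of *Kcna5*, *Kcnab1* and *Kcnma1* was not tested. The 4 genes with a positive change at an unadjusted p under 0.05 were *Kcnj15*, *Kcnab2*, *Kcnk13* and *Kcnk6*. *Kcnk13* had medians of 0 and 329 normalized counts in PC, with 0 in at least 1 library of each hemisphere, and *Kcnk6* 10 and 116.5. The microglial marker sum in PC went from a median of 1258 to one of 10670, or from 1.5% to 9.95% of its level in MG, which was itself lower in ipsilateral libraries, with 4 of 4 markers above a mean of 10, while *Kcnk13* went from 0.95% to 14.6% and *Kcnk6* from 0.935% to 11.8% of theirs. The 4 microglial markers had log2 changes in PC from 0.66 for *Tmem119* to 2.67 for *Cd68*, and none was called regulated (limma, adjusted p from 0.146 to 0.523). In ipsilateral PC that marker sum was 6025 to 28388 in replicates 1 to 4 and 267 to 277 in replicates 5 and 6. Its part in these values was not tested.

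**Figure D4:**
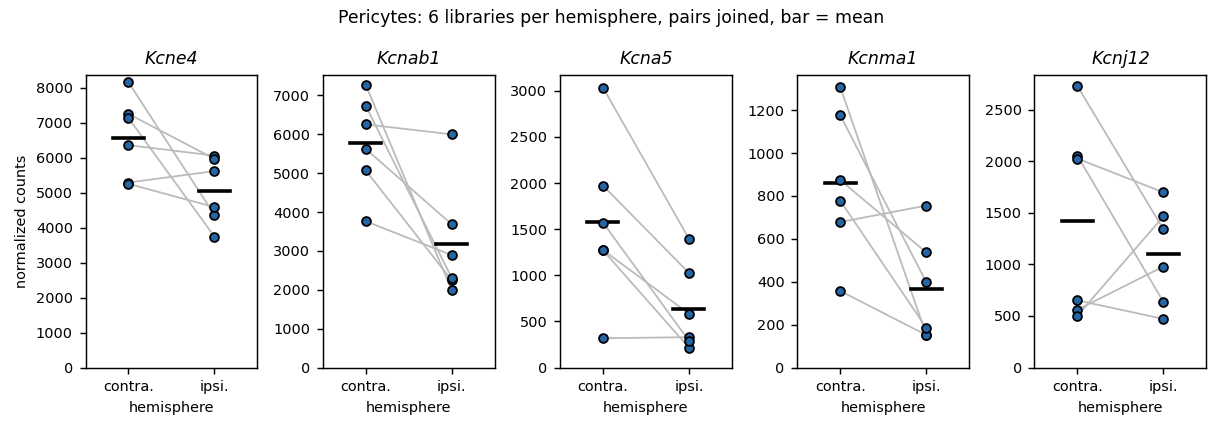
Normalized counts of *Kcne4*, *Kcnab1*, *Kcna5*, *Kcnma1* and *Kcnj12* in the 6 contralateral and 6 ipsilateral PC libraries, with lines joining libraries of the same replicate number and bars for the means; each panel has its own axis from 0. The means of all 5 genes are lower in ipsilateral PC, and only the lines of *Kcnab1* fall in 6 of 6 pairs.

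In astrocytes 0 of 48 tested genes were regulated, against 1.59% of all genes, and 10 had an unadjusted p under 0.05 by limma, against 17.6%. *Kcnk1* had 5917 to 11051 normalized counts (median 7967.5) in contralateral and 3344 to 8853 (median 5026.5) in ipsilateral AC. It was lower in 5 of 6 pairs, with overlapping groups (log2 change -0.64, standard error 0.19, adjusted p = 0.116). *Kcnn2* was lower in 6 of 6 pairs, with medians of 2417 and 1116 (log2 change -0.83, standard error 0.24, adjusted p = 0.107), and so was *Kcnc4*, with medians of 376.5 and 240 (log2 change -0.73, standard error 0.20, adjusted p = 0.0912). *Kcnip3* was higher in 6 of 6 pairs in AC, with medians of 2203 and 2819 (log2 change 0.38, standard error 0.13, adjusted p = 0.167), against the fall seen in MG. *Kcna1* (-0.05, standard error 0.17), *Kcnj16* (-0.20, standard error 0.17) and *Kcnn3* (-0.10, standard error 0.28) had log2 changes that did not pass the test. *Kcna3* had medians of 23.5 and 51.5 and *Kcnk13* of 531.5 and 753, both higher in 6 of 6 pairs (adjusted p = 0.149 and 0.183). The microglial marker sum in AC was 611 to 13973 (median 1614) in contralateral and 368 to 10617 (median 3063.5) in ipsilateral libraries, and its 4 markers had log2 changes in AC from -0.53 for *Tmem119* to 1.14 for *Cd68*, with adjusted p-values from 0.391 to 0.97. Its part in these values was not tested. The median log2 change of the 48 genes in AC was -0.26, against -0.06 for all genes, and all of these genes were measured in the same 6 pairs of libraries.

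In endothelial cells 0 of 26 tested genes were regulated, against 0.551% of all genes, and 6 had an unadjusted p under 0.05 by limma, against 13.6%. *Kcnq1* had medians of 378 and 604.5 normalized counts and was higher in 4 of 6 pairs (log2 change 0.60, standard error 0.49, adjusted p = 0.646). *Kcna5* had medians of 330.5 and 186 and was lower in 5 of 6 (log2 change -1.15, standard error 0.51, adjusted p = 0.365). *Kcnj2* had medians of 282 and 365 (log2 change 0.37, standard error 0.39, adjusted p = 0.728). *Kcne3*, a β subunit that met no rule for naming and was chosen after its values were seen, was at 0 to 23 in contralateral and 0 to 245 in ipsilateral EC, higher in 5 of 6 pairs and equal in the other (log2 change 3.17, standard error 0.87, adjusted p = 0.147). *Kcnip3* was lower in 6 of 6 pairs, with medians of 67 and 27.5 (log2 change -1.99, standard error 0.65, adjusted p = 0.225), and passed only in the joint fit of 48 libraries. *Kcnk5* and *Kcnk13* were higher at an unadjusted p under 0.05. *Kcnk13* in EC was 1.86% and 5.94% of its MG level, and the microglial marker sum in EC was 192 to 7629 (median 4806) in contralateral and 276 to 21121 (median 5066.5) in ipsilateral libraries. The smooth muscle marker sum in EC had medians of 1678.5 and 532, beside the lower values of *Kcna5*, and its 4 markers had adjusted p-values from 0.0789 to 0.442 there. The neutrophil marker sum in EC had medians of 294.5 and 2136, beside the higher values of *Kcne3*. Of its 4 markers *Cxcr2* was called (limma, log2 change 5.54, adjusted p = 0.0343), and the others had adjusted p-values from 0.0816 to 0.122. *Kcne3* also had means of 1.17 in contralateral and 42.3 in ipsilateral MG. The part of these cells in the EC values was not tested.

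**Figure D5:**
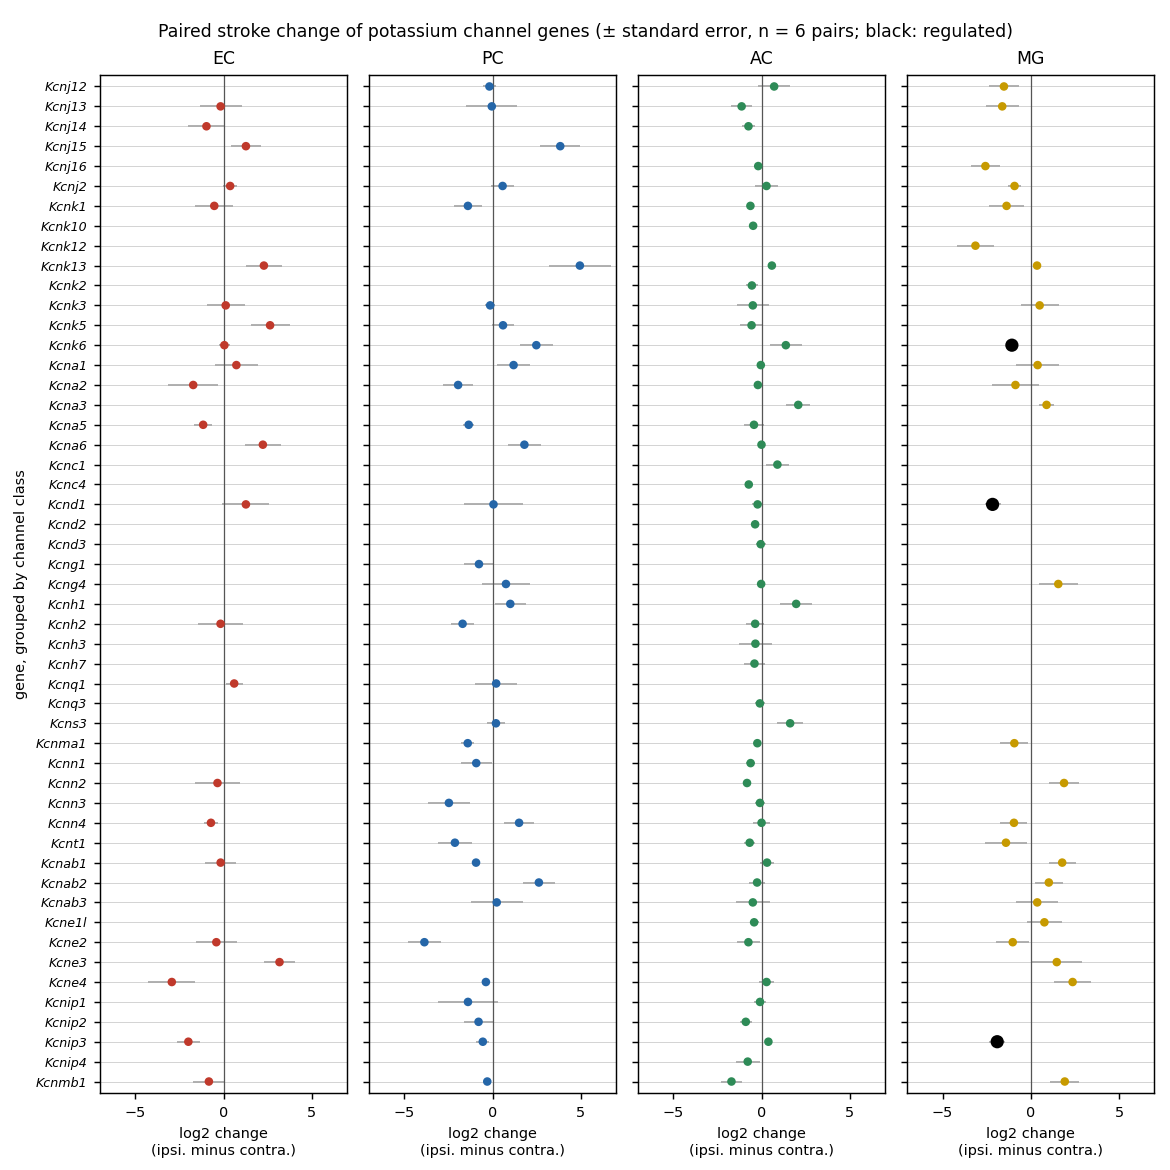
Paired log2 change, ipsilateral minus contralateral, of 51 channel genes where tested in each cell type, with horizontal bars of 1 standard error over 6 pairs; larger black points are the regulated genes and a missing point is a gene with a mean under 10 in that cell type. Black points are *Kcnk6*, *Kcnd1* and *Kcnip3* in MG, at -1.07, -2.17 and -1.90.

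A change called in 1 cell type is not thereby different from the others, so the differences between the 4 changes were tested in a joint limma fit of the 48 libraries. Of the 53 genes 0 differed between any 2 cell types at an adjusted p of at most 0.05 in any of 6 contrasts, against 2.68% of 15003 genes. The smallest adjusted p-values were those of *Kcne4* (EC minus MG, -5.30, standard error 1.36, adjusted p = 0.0619), *Kcnip3* (AC minus MG, 2.28, standard error 0.58, adjusted p = 0.0651), *Kcnmb1* (AC minus MG, -3.64, standard error 0.93, adjusted p = 0.067) and *Kcnk6* (PC minus MG, 3.55, standard error 1.02, adjusted p = 0.0732). With a pseudocount of 10, 4 genes differed, *Kcnk6* (PC minus MG, adjusted p = 0.00776), *Kcnip3* (AC minus MG, 0.0223), *Kcnk12* (PC minus MG, 0.036) and *Kcnj15* (PC minus MG, 0.0365). A single gene differed when replicate 2 (*Kcne4*, EC minus MG, adjusted p = 0.0204), replicate 5 (*Kcnk6*, PC minus MG, 0.0441) or replicate 6 (*Kcnk13*, PC minus MG, 0.037) was left out. Whether the falls of *Kcnk6* and *Kcnip3* in MG differ from their changes elsewhere thus depended on these settings, and for *Kcnd1* no difference was called in any of them.

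Potassium is also moved by pumps and cotransporters, which were read from the same fits for 30 of 32 listed genes found in the table. Regulation was called for 1 of 19 tested in PC (1.66% of all genes), 2 of 17 in MG (11%), 0 of 20 in EC (0.551%) and 0 of 22 in AC (1.59%), so the MG count is close to its background. *Fxyd5*, which encodes a regulator of the sodium-potassium pump, ranged from 329 to 642 normalized counts in contralateral and from 1364 to 6738 in ipsilateral MG. It rose in 6 of 6 pairs without overlap (log2 change 2.45, standard error 0.22, adjusted p = 0.000512). *Atp1b1*, a β subunit of the pump, ranged from 3706 to 6057 in contralateral and from 2222 to 4529 in ipsilateral PC and fell in 6 of 6 pairs (log2 change -0.68, standard error 0.14, adjusted p = 0.049). The *Atp1b1* call lies at the threshold, and 1 to 5 genes of this list were called when a replicate was left out.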

How the data were processed

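Sorted EC, PC, AC and MG gave 48 RNA-seq libraries. The authors trimmed the reads (Trimmomatic 0.38), aligned them with STAR 2.6.1d to GRCm38, counted reads on genes with featureCounts 1.6.3, leaving out reads of several genes or places, and divided the counts by DESeq2 1.18.1 size factors. The values they deposited are these counts rounded to whole numbers, treated here as a score and never as raw counts, so no count test was run and the read depth behind a value was not derived. Intervals for counting error are therefore not given.

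The symbols, identifiers and biotypes are those of the table, and exon lengths per gene come from GENCODE M21. SMART-Seq libraries do not mark strand, so reads of a gene and of an antisense partner cannot be told apart. Genes were tested two-sided in R 4.3.3 with limma 3.58.1 (lmFit, eBayes with trend) on log2(normalized count + 1). Adjustment was by Benjamini-Hochberg over all genes with a mean of at least 10 in the fit. On this scale the added 1 shrinks the change of low genes, while single libraries at 0 can widen it beyond the change of the group means. Hemispheres were fitted per cell type (12 libraries), cell types over 24 libraries, and differences of change over 48, each with the replicate number as a block. The p-values measure the spread between pools. Same-numbered libraries deviated together with a mean correlation across genes of 0.24, from -0.07 to 0.66, over 0.1 in 15 of 24 pairs. The mean for other numbers, -0.05, follows from centring the libraries of each hemisphere and is no separate comparison. Summaries used Python 3.11.15, numpy 2.4.6, pandas 2.3.3 and matplotlib 3.10.9.

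Named genes were the regulated ones, the 5 highest per kilobase and up to 6 enriched ones per cell type, those next to the mean of 10, and a list of channels known in these cells. The members, lists and tests were chosen with earlier results of these data known. Others are named for an unadjusted p under 0.05 or to complete a list. Alternatives were the pseudocount, the filter, the block, rescaling, the joint fit, the call rules, replicates 1 to 4 alone and each replicate left out. Results on 3 further genes are not reported here.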

Additional observations from a re-analysis of the deposited data

Results flagged for a closer look

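Of 42 combinations of gene and group tested for a library far from the others of its group, 3 stood out, where chance gives about 1 in 20. All 3 were *Kcnj13* in replicate 2. It was at 3365 normalized counts in contralateral EC against 0 to 598 in the other 5 libraries, at 4457 in contralateral PC against 0 to 525, and at 2469 in ipsilateral PC against 1 to 270. The same libraries were the highest of their groups for the sum of choroid plexus genes, which reached 118925, 201627 and 104912. *Kcnj13* was neither enriched nor regulated in any cell type.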

How the results depend on the processing

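The count of regulated potassium channel genes stayed at 0 in AC under all alternatives, and in EC and PC it was 1 each in the joint fit of 48 libraries (*Kcnip3* in EC, *Kcne2* in PC) and 0 in the other alternatives. In MG it was 3, and 1 to 4 with a replicate left out, where the 1 was without replicate 4. The list of other potassium genes gave 3 calls, 1 with a pseudocount of 0.1, 5 with a pseudocount of 10, 1 with no filter, 5 with a mean of at least 50, 1 with replicates 1 to 4 alone, and 1 to 5 with a replicate left out. Enriched genes in EC were 2, and 1 with a pseudocount of 0.1, with a mean of at least 50, with replicates 1 to 4 alone and in ipsilateral libraries, and 1 to 2 with a replicate left out, where *Kcnj15* lost its call without replicate 3 or 6 and was too low to be tested without replicate 4. In AC there were 22, and 14 with a mean of at least 50, under which 35 of the genes could be tested. In MG there were 3, 5 with a pseudocount of 10, 1 with a mean of at least 50 and 1 in ipsilateral libraries. Changes that differed between cell types were 0, but 4 with a pseudocount of 10 (smallest adjusted p = 0.00776) and 0 to 1 with a replicate left out, 1 without replicate 2, 5 or 6. The cause of these shifts was not tested beyond the smaller number of genes. No result reversed. For single genes 1060 values kept their side of the threshold, 50 lost it and 5 gained it.

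Without the replicate block, that is without pairing, the number regulated was 3 in MG and 0 in EC, PC and AC, and enriched genes numbered 10 in PC and 21 in AC, so the block changed no call between hemispheres of a channel gene. No source used here states outright that a number marks 1 pool of mice, and 15 of 24 libraries correlated best with their own number. With 6 pairs and values rounded after normalization, small changes of low genes were not detectable.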
